A study of Mus musculus with 9 samples.

Results

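The genes described here are 34 mouse genes that supply cells with amino acids and one-carbon units: 14 enzymes of nonessential amino acid synthesis and related steps (Pck2 among them), 6 enzymes of folate-dependent one-carbon metabolism, 2 enzymes of transsulfuration, 2 branched-chain aminotransferases and 10 plasma membrane amino acid transporters. They were chosen by name, as the amino acid supply arm of the program that the transcription factor ATF4 controls, with related enzymes. All 34 were found among the 52661 gene rows of the count table, and all 34 had enough counts to enter the test, as 18408 genes did. Total RNA of mouse embryonic fibroblasts (MEFs) of the C57BL/6 strain was sequenced in 9 libraries, 3 in each of 3 groups. The first group was Ctr1-null cells (genotype Ctr1 -/-) that had received 500 uM of the copper chelator bathocuproine disulfonic acid (BCS) for 48 hours (Ctr1-null+BCS). The others were untreated Ctr1-null cells and wild type (WT) cells. All groups were immortalised with the T/t antigen and grew in DMEM with modified N2 supplement, EGF and FGF-2. The titles of the Ctr1-null samples name a floxed Ctr1 allele, and the labels do not say how many clones or separate cultures the libraries came from. The p-values therefore measure the spread between these libraries, which may be technical. No WT cells given BCS were analysed here, so an effect of BCS itself and one that needs the loss of Ctr1 cannot be told apart.

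Ctr1, encoded by Slc31a1, is the main importer of copper at the plasma membrane, and the copper it brings in reaches, among other enzymes, cytochrome c oxidase of the mitochondrial respiratory chain. When cells lack an amino acid, or when their mitochondria or endoplasmic reticulum are under stress, kinases phosphorylate the translation factor eIF2α. General translation then slows while translation of Atf4 mRNA rises. ATF4 then pairs with C/EBP family proteins on a composite DNA element and raises transcription of enzymes for serine, glycine, proline, asparagine and alanine, of mitochondrial folate enzymes, and of importers of amino acids. The 34 genes hold both well known ATF4 targets and enzymes of the same pathways that are not known for that regulation.

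Slc31a1 (chr4:62360727-62391769, plus strand, GRCm38) was measured at 3.24, 2.54 and 1.69 CPM (counts scaled to the library total) in Ctr1-null+BCS libraries, at 2.54, 3.88 and 1.40 CPM in Ctr1-null libraries and at 56.1, 54.8 and 54.9 CPM in WT libraries. All 6 null libraries were far below all 3 WT libraries, as the labels state. The log2 fold change was −4.47 ± 0.33 (SE) in Ctr1-null+BCS against WT (adjusted p = 0.00135) and −4.40 ± 0.33 in Ctr1-null against WT (adjusted p = 0.00303). Every adjusted p here is from edgeR's quasi-likelihood test on the counts of all 9 libraries, with Benjamini-Hochberg adjustment over the 18408 genes, unless another tool or an omitted library is named. A gene is said to rise or fall where its adjusted p is under 0.05. Library totals ran between 38962036 and 57206337 counts. The 12 fibroblast markers, collagens among them, summed to 18085 to 21966 CPM in Ctr1-null+BCS, 16522 to 20274 CPM in Ctr1-null and 17643 to 20043 CPM in WT. Such sums weight the most abundant markers most, and single fibroblast markers differed between libraries of the same group. The 7 macrophage and blood markers summed to 18.7 to 26.3 CPM in Ctr1-null+BCS, 16.0 to 22.1 CPM in Ctr1-null and 10.9 to 18.6 CPM in WT, with Adgre1 and Hbb-bs at 0 in all 9 libraries. Of the 4 that were tested in Ctr1-null+BCS against WT, 2 had a positive and 2 a negative log2 fold change, and none passed the test. The smallest adjusted p was that of Cd68, which averaged 16.3 CPM in Ctr1-null+BCS and 7.45 CPM in WT (1.13 ± 0.35, adjusted p = 0.0560). The 7 neural progenitor and glia markers summed to 119.7 to 145 CPM in Ctr1-null+BCS, 172 to 201 CPM in Ctr1-null and 156 to 244 CPM in WT. Of the 5 that were tested in Ctr1-null+BCS against WT, 3 had a positive and 2 a negative log2 fold change. Without overlap between these groups, 2 were higher and 2 lower. Only Fabp7 passed the test, at 1.77 CPM in Ctr1-null+BCS against 0.247 CPM in WT (2.81 ± 0.62, adjusted p = 0.0189). The 6 epithelial markers summed to 2.16 to 2.55 CPM in Ctr1-null+BCS, 1.18 to 3.95 CPM in Ctr1-null and 2.33 to 9.80 CPM in WT. The endothelial markers summed to 38.3 CPM or less and the muscle markers to 0.657 CPM or less in every library. The 7 fat cell markers summed to 67.4 to 81.8 CPM in Ctr1-null+BCS, 58.8 to 85.5 CPM in Ctr1-null and 24.4 to 30.3 CPM in WT, with Cidec at 0 in WT. Of the 4 that were tested, 3 rose in Ctr1-null+BCS against WT and 1 in Ctr1-null against WT. The part of these other cell type markers in any result below was not tested. WT replicate 1 stood apart from the other WT libraries on the first principal component of all tested genes (−2.04 against 67.1 and 63.3). It lay within the range of the untreated Ctr1-null libraries there (9.05, −10.2 and −32). Calls that changed without WT replicate 1 are therefore named.

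The 34 genes spanned a wide range of abundance. Corrected for exon length, the mean level in WT ran from 123 CPM per kb for Phgdh, 117 for Ass1 and 116 for Psat1 down to 0.645 for Slc7a3, 0.622 for Cbs and 0.464 CPM per kb for Slc7a11. The last of these, the cystine importer, was the least abundant of the 34 in WT by this corrected measure. Without the correction Slc7a3 and Cbs were lower in WT, at 2.44 and 4.66 CPM against 6.46 CPM for Slc7a11. Slc7a11 had the largest fold change of the 34 in Ctr1-null+BCS against WT. On the plot of all members by library, Slc7a11 and Slc7a3 are the darkest rows, and most rows of Ctr1-null replicates 2 and 3 and of WT replicate 1 lie below the WT mean.

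**Figure D1:**
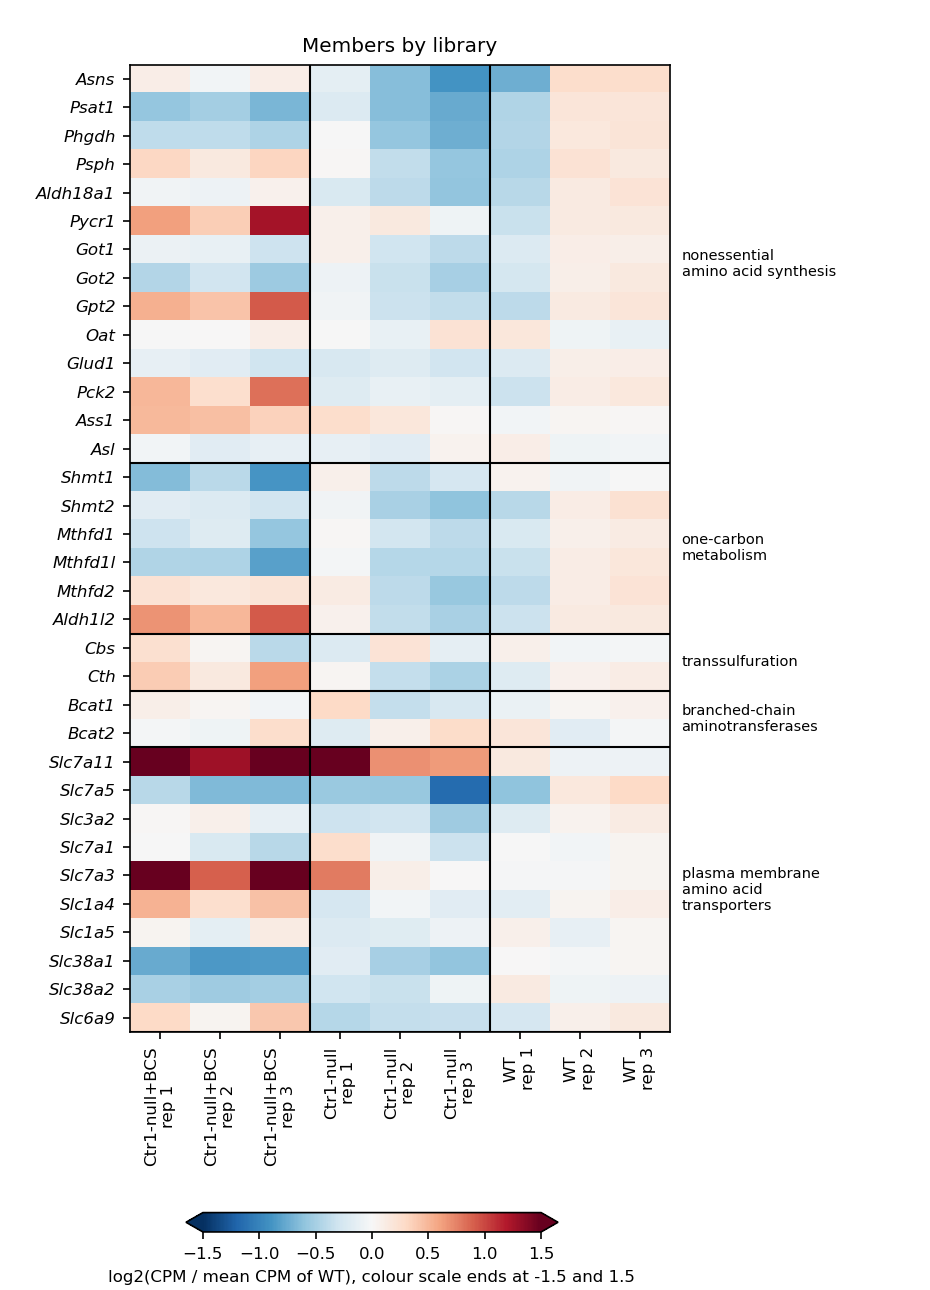
Level of each of the 34 genes (rows, grouped by role) in each of the 9 libraries (columns), as the log2 ratio of its CPM to the mean CPM of the 3 WT libraries; red is above and blue below the WT mean, and colours saturate at a log2 ratio of 1.5 in either direction. Slc7a11 and Slc7a3 are red in all 3 Ctr1-null+BCS libraries, while the row of Slc38a1 is blue there, and WT replicate 1 differs in colour from WT replicates 2 and 3 in many rows.

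Against WT, the null cells given BCS had a split response: 8 of the 34 genes rose and 4 fell. These are 23.5% and 11.8% of the 34, where 8.56% of all 18408 genes rose and 7.28% fell. The genes that rose were the transporters Slc7a11, Slc7a3 and Slc1a4, the enzymes Pycr1, Gpt2, Pck2 and Ass1, and the mitochondrial folate enzyme Aldh1l2. Those that fell were the glutamine transporters Slc38a1 and Slc38a2, the cytosolic serine hydroxymethyltransferase Shmt1 and the mitochondrial formate-producing enzyme Mthfd1l. The median log2 fold change of the 34 was 0.001, against 0.01 over all genes tested, with 17 positive and 17 negative. DESeq2 called 8 higher and 6 lower, where it called 10.7% of all genes higher and 11.5% lower. With limma-voom 8 were called higher and 4 lower, and its share of all genes was not counted.

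Among the transporters, Slc7a11 (chr3:49892526-50443614, minus strand), the subunit of system xc- that exchanges cystine for glutamate, was at 24.8, 15.6 and 25.1 CPM in Ctr1-null+BCS, 23.1, 10.4 and 10.1 CPM in Ctr1-null and 7.13, 6.11 and 6.15 CPM in WT. Every null library, treated or not, lay above every WT library, and the Ctr1-null group was spread between replicate 1, at the level of the treated cells, and the other 2 libraries. It rose 3.37-fold in Ctr1-null+BCS against WT (log2 fold change 1.75 ± 0.32 SE, adjusted p = 0.0109). That call was lost without WT replicate 2 or 3, where the largest adjusted p was 0.0533. Slc7a3 (chrX:101079210-101086020, minus strand), a cationic amino acid transporter that carries arginine and lysine, was at 7.32, 4.54 and 8.68 CPM in Ctr1-null+BCS, 4.18, 2.60 and 2.46 CPM in Ctr1-null and 2.41, 2.41 and 2.51 CPM in WT. The treated libraries did not overlap with either of the other groups, which overlapped with each other. Its rise against WT was 2.80-fold (1.49 ± 0.27, adjusted p = 0.0109), and it was called in each of the 19 refits with another setting or 1 library fewer.

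Slc1a4 (chr11:20302180-20332713, minus strand), an exchanger of alanine, serine, cysteine and threonine, was at 66.7, 55.2 and 63.0 CPM in Ctr1-null+BCS, 38.9, 45.1 and 41.1 CPM in Ctr1-null and 41.7, 47.6 and 49.9 CPM in WT. The treated group was above both others without overlap. Against WT the log2 fold change was 0.41 ± 0.10 (adjusted p = 0.0263), a call that was lost under 4 of the 9 omissions of 1 library. Its close relative Slc1a5, the glutamine importer ASCT2, was at 49.5, 43.4 and 52.1 CPM in Ctr1-null+BCS and 50.8, 44.1 and 49.1 CPM in WT, with overlapping groups (0.01 ± 0.09, adjusted p = 0.956).

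The sodium-coupled neutral amino acid transporters Slc38a1 and Slc38a2 fell. Slc38a1 (SNAT1; chr15:96571418-96642913, minus strand) was at 132, 123 and 124 CPM in Ctr1-null+BCS, 198, 158 and 148 CPM in Ctr1-null and 224, 219 and 227 CPM in WT. The 3 groups did not overlap, with treated cells lowest and WT highest. Its fall in treated cells against WT had the smallest adjusted p of the 34 (−0.82 ± 0.10, adjusted p = 0.00463) and was called in all 19 refits, though the change is under 2-fold. Slc38a2 (SNAT2; chr15:96687392-96699730, minus strand), which is known to be induced by amino acid shortage, was at 389.7, 377 and 385 CPM in Ctr1-null+BCS, 446, 433 and 523 CPM in Ctr1-null and 602, 522 and 518 CPM in WT. It fell against WT (−0.51 ± 0.10, adjusted p = 0.0115), a call that was lost without Ctr1-null+BCS replicate 3 (adjusted p = 0.0502).

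The remaining 5 transporters, Slc1a5 included, did not pass the test in Ctr1-null+BCS against WT. Slc7a5 (LAT1), which imports leucine and other large neutral amino acids, was at 194, 164 and 164 CPM in treated cells and 169.7, 289 and 317 CPM in WT cells, where replicate 1 lay among the treated libraries (−0.57 ± 0.23, adjusted p = 0.118). It was one of 10 members called lower without WT replicate 1, where 6 were called higher and the test called 15.3% of all genes lower and 15.7% higher. Slc3a2, the heavy chain that both Slc7a5 and Slc7a11 need at the cell surface, was at 306, 318 and 276 CPM in treated cells and 264, 313 and 327 CPM in WT cells (−0.01 ± 0.11, adjusted p = 0.972). The arginine transporter Slc7a1 and the glycine transporter Slc6a9 had log2 fold changes of −0.21 ± 0.15 and 0.26 ± 0.12.

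Of the 14 enzymes of nonessential amino acid synthesis and related steps, 4 rose and none fell in Ctr1-null+BCS against WT. Pycr1, the mitochondrial enzyme of the last step of proline synthesis, was at 18.9, 15.9 and 29.1 CPM in Ctr1-null+BCS, 13.0, 13.6 and 11.8 CPM in Ctr1-null and 9.77, 13.5 and 13.6 CPM in WT. Gpt2, the mitochondrial alanine aminotransferase, was at 28.9, 26.9 and 37.7 CPM in Ctr1-null+BCS, 19.2, 16.0 and 15.4 CPM in Ctr1-null and 15.2, 22.0 and 22.7 CPM in WT. Pck2, the mitochondrial phosphoenolpyruvate carboxykinase, was at 95.8, 81.3 and 121 CPM in Ctr1-null+BCS, 59.3, 62.9 and 61.6 CPM in Ctr1-null and 54.6, 73.7 and 75.8 CPM in WT. For all 3 genes the treated libraries lay above every other library, replicate 3 of the treated cells was the highest of the 9, and the Ctr1-null and WT groups overlapped. Against WT the log2 fold changes were 0.79 ± 0.22 for Pycr1, 0.64 ± 0.18 for Gpt2 and 0.55 ± 0.16 for Pck2, with adjusted p-values of 0.0364, 0.0382 and 0.0424. These calls were lost in 6 or 7 of the 9 omissions of 1 library, those of treated replicates 1 and 3 included, and in the fit of only the groups compared. Neither Pycr1 nor Pck2 was called without WT replicate 1, where the adjusted p of Pck2 was 0.0533 and that of Pycr1 lay just over the threshold. Pycr1 and Gpt2 were also not called with the authors' own scaling factors.

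Ass1, which joins citrulline and aspartate on the way to arginine, was at 395, 388 and 361 CPM in Ctr1-null+BCS, 341, 318 and 287 CPM in Ctr1-null and 275, 288 and 286 CPM in WT. The treated libraries were above all others, and the lowest Ctr1-null library lay just inside the WT range. Ass1 rose against WT by 0.43 ± 0.08 on the log2 scale (adjusted p = 0.0119). It was not called without treated replicate 1, WT replicate 2 or WT replicate 3, where adjusted p reached 0.0553. Asl, the next enzyme toward arginine, had 19.0, 17.3 and 17.9 CPM in treated cells and 20.9, 18.7 and 19.0 CPM in WT cells (−0.11 ± 0.09, adjusted p = 0.437).

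None of the 3 serine synthesis enzymes passed the test in any comparison. Phgdh, which commits glycolytic carbon to serine, was at 235, 236 and 222 CPM in Ctr1-null+BCS, 304, 205 and 185 CPM in Ctr1-null and 225, 343 and 351 CPM in WT. Psat1, the aminotransferase of the next step, was at 331, 347 and 306 CPM in Ctr1-null+BCS, 429.6, 317 and 292 CPM in Ctr1-null and 362, 559 and 559 CPM in WT. For both genes the treated libraries lay close together and below WT replicates 2 and 3, while replicate 1 lay far above the rest of the Ctr1-null group and far below the rest of the WT group. The log2 fold changes against WT did not pass the test (Phgdh −0.41 ± 0.20, adjusted p = 0.196; Psat1 −0.59 ± 0.19, adjusted p = 0.0591), and both were called lower without WT replicate 1. Psat1 was also called lower by DESeq2, without a filter and without Ctr1-null replicate 1. Psph, the phosphatase that ends the pathway, was at 29.0, 25.9 and 29.2 CPM in treated cells and 16.9, 27.2 and 25.9 CPM in WT cells, with overlap (0.26 ± 0.19, adjusted p = 0.372).

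Asns, the asparagine synthetase often read as a marker of ATF4 activity, was at 117, 106 and 117 CPM in Ctr1-null+BCS, 98.5, 69.9 and 58.6 CPM in Ctr1-null and 65.3, 131 and 130.2 CPM in WT. Treated cells were above untreated null cells in all libraries and inside the range of WT (against WT, 0.05 ± 0.26, adjusted p = 0.911). Aldh18a1, which makes the proline precursor upstream of Pycr1, had a log2 fold change of −0.02 ± 0.15 against WT. Among the remaining enzymes, the glutamate and aspartate enzymes Got1, Got2 and Glud1 and the ornithine aminotransferase Oat had log2 fold changes between −0.42 and 0.03, and the branched-chain aminotransferases Bcat1 and Bcat2 had 0.03 ± 0.15 and 0.06 ± 0.14. None of these 7 genes passed the test. Got2 (−0.42 ± 0.14, adjusted p = 0.0637), whose treated libraries were all below the WT libraries, was called lower by DESeq2 (adjusted p = 0.0231), without a filter and without Ctr1-null replicate 1 or WT replicate 1. Glud1 was called lower without WT replicate 1 (−0.29 ± 0.08, adjusted p = 0.0184).

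**Figure D2:**
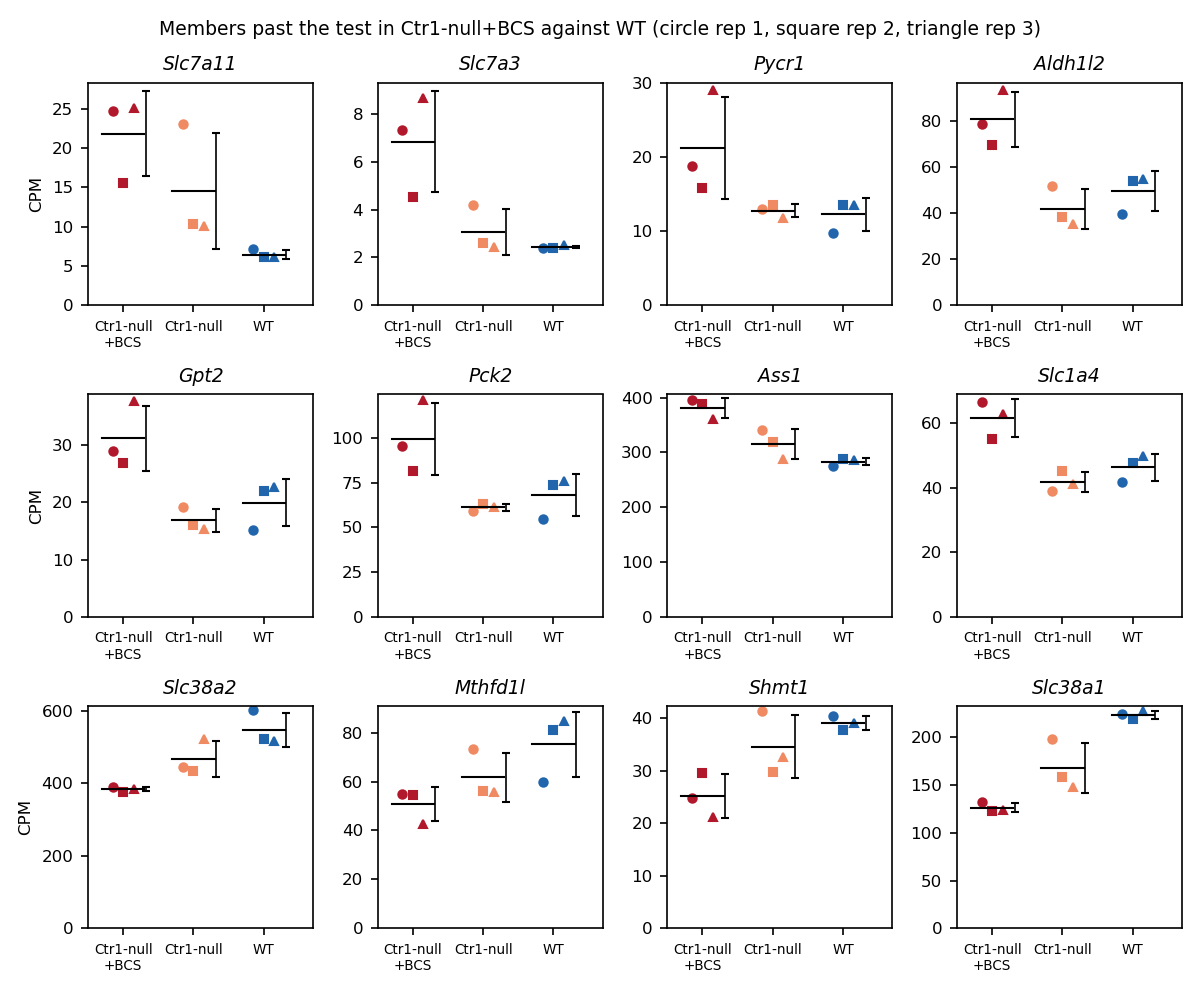
CPM (y axis, linear from 0) of the 12 genes that passed the test in Ctr1-null+BCS against WT, in each library of Ctr1-null+BCS, Ctr1-null and WT (left to right); points are libraries, horizontal lines are group means and bars are ± 1 SD (n = 3). Slc7a11 is above WT in all 6 null libraries, while Slc7a3, Pycr1, Aldh1l2, Gpt2, Pck2, Ass1 and Slc1a4 are highest in the 3 treated libraries and Slc38a1, Slc38a2, Shmt1 and Mthfd1l lowest there.

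Of the 6 one-carbon enzymes, 1 rose and 2 fell in Ctr1-null+BCS against WT. Aldh1l2 (chr10:83487450-83534140, minus strand), which oxidises 10-formyltetrahydrofolate in mitochondria and makes NADPH, was at 79.1, 69.9 and 93.7 CPM in Ctr1-null+BCS, 51.8, 38.5 and 35.3 CPM in Ctr1-null and 39.6, 54.3 and 54.9 CPM in WT. Mthfd1l, which turns the same folate into formate in mitochondria, was at 54.8, 54.7 and 42.6 CPM in Ctr1-null+BCS, 73.4, 56.0 and 55.8 CPM in Ctr1-null and 59.8, 81.0 and 84.7 CPM in WT. Treated cells were thus the highest group for the one enzyme and the lowest for the other, with no overlap in either case. Against WT Aldh1l2 rose (0.71 ± 0.18, adjusted p = 0.0280) and Mthfd1l fell (−0.57 ± 0.16, adjusted p = 0.0432). The omission of treated replicate 1 or 3, or of WT replicate 2 or 3, ended either call. Mthfd1l also lost its call without treated replicate 2 and without Ctr1-null replicate 2 or 3, with no scaling beyond library size and with the authors' own factors.

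Shmt1, the cytosolic enzyme that interconverts serine and glycine, was at 24.8, 29.6 and 21.1 CPM in Ctr1-null+BCS, 41.3, 29.7 and 32.7 CPM in Ctr1-null and 40.4, 37.8 and 39.0 CPM in WT. The treated libraries were the 3 lowest, and Ctr1-null replicate 2 was just above the highest of them. Shmt1 fell in treated cells against WT (−0.64 ± 0.14, adjusted p = 0.0206). It was not called without treated replicate 1 or 3 or WT replicate 2 or 3, where adjusted p reached 0.0802. Its mitochondrial counterpart Shmt2 was at 163, 159.6 and 151 CPM in treated cells and 138, 199 and 215 CPM in WT cells, with overlap (−0.22 ± 0.18, adjusted p = 0.424). Mthfd2, the mitochondrial methylenetetrahydrofolate dehydrogenase, and Mthfd1, its cytosolic trifunctional counterpart, did not pass the test (0.19 ± 0.19, adjusted p = 0.519, and −0.35 ± 0.14, adjusted p = 0.113). Mthfd1 was called lower without WT replicate 1 (−0.46 ± 0.14, adjusted p = 0.0317).

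Ratios of counts within a library do not depend on how libraries are scaled. They compare the balance of paired genes between libraries, not the abundance of a gene with that of its pair. The pairs were chosen after the values were seen, and no test was made of them. The count of Aldh1l2 over that of Mthfd1l was 1.44, 1.28 and 2.20 in Ctr1-null+BCS, 0.705, 0.687 and 0.633 in Ctr1-null and 0.662, 0.670 and 0.649 in WT, without overlap between the treated group and the others. The counts are not corrected for exon length (7503 bases for Aldh1l2 and 4435 for Mthfd1l), so a ratio of 1 does not mean equal abundance. Corrected for exon length, the treated means were 10.8 CPM per kb for Aldh1l2 and 11.4 for Mthfd1l. The ratio of Shmt2 to Shmt1 was 6.58, 5.40 and 7.16 in Ctr1-null+BCS, 4.29, 4.39 and 3.68 in Ctr1-null and 3.41, 5.27 and 5.51 in WT, where the treated and WT groups overlapped. The ratio of Mthfd2 to Mthfd1 was 0.837, 0.740 and 0.994 in Ctr1-null+BCS, 0.628, 0.534 and 0.513 in Ctr1-null and 0.517, 0.595 and 0.614 in WT, without overlap between the treated group and the others. The ratio of Slc7a11 to its partner Slc3a2 averaged 0.0736 ± 0.0220 in Ctr1-null+BCS, 0.0621 ± 0.0292 in Ctr1-null and 0.0218 ± 0.00455 in WT (SD, n = 3 each), and it was higher in all 6 null libraries than in any WT library.

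**Figure D3:**
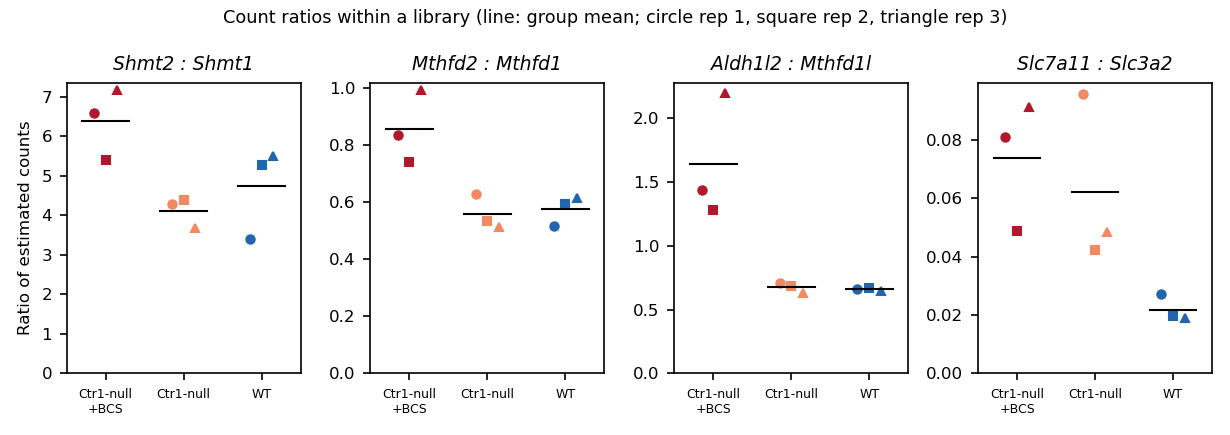
Ratio of estimated counts (y axis, linear from 0, no unit) of 4 pairs of genes within each library of Ctr1-null+BCS, Ctr1-null and WT (left to right); points are libraries and lines are group means (n = 3). The ratio of Aldh1l2 to Mthfd1l is between 1.28 and 2.20 in treated libraries and between 0.633 and 0.705 in the other 6, and the ratio of Slc7a11 to Slc3a2 is lowest in the 3 WT libraries.

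Neither of the transsulfuration enzymes, which carry the sulfur of homocysteine to cysteine, passed the test in any comparison. Cth, which releases cysteine, was at 18.8, 15.9 and 22.0 CPM in Ctr1-null+BCS, 14.7, 11.2 and 10.4 CPM in Ctr1-null and 12.6, 15.0 and 15.6 CPM in WT. The treated libraries were the 3 highest, and the difference from WT did not pass the test (0.39 ± 0.16, adjusted p = 0.127). Cbs, which makes cystathionine, was at 5.48, 4.75 and 3.51 CPM in treated cells and 4.89, 4.51 and 4.57 CPM in WT cells, with overlap (−0.02 ± 0.19, adjusted p = 0.944).

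Promoter windows of 300 bases (250 before and 50 after the annotated start; RefSeq, GRCm38.p6) were given for 27 of the 34 genes. They were searched on both strands for TGATGNAA, the letters of the composite C/EBP-ATF element that ATF4 binds, which read TTNCATCA on the other strand. The letters were present in 6 of the 27 genes (22.2%) and in 358 of 11972 tested genes with a window (2.99%). The 34 were chosen as part of the ATF4 program, so a higher share follows from that choice and is not a result of these data. Of the 6 genes with a window that rose in Ctr1-null+BCS against WT, 4 held the letters, none of the 3 with a window that fell did, and 2 of the other 18 did. No test was made of this split, and the share among all genes that rose was not counted. The 34 were also chosen with earlier results of these data known, so no conclusion is drawn from the split. Those 4 windows and that of Asns, which held the letters but did not pass the test against WT, are shown 5′ to 3′ in the direction of transcription, with each match in capitals.
Slc7a11 (chr3:50443564-50443863, minus strand): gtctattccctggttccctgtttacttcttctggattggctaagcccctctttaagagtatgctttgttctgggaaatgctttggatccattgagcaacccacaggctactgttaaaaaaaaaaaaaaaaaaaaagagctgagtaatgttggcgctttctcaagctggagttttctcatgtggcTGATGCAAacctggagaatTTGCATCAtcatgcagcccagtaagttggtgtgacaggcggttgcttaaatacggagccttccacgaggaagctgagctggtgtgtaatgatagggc
Pycr1 (chr11:120643699-120643998, minus strand): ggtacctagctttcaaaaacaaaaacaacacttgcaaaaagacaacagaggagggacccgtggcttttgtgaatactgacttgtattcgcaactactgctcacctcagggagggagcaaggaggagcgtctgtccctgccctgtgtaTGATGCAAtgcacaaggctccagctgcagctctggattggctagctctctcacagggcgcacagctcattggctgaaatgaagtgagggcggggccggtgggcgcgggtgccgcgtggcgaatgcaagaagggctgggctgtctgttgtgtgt
Pck2 (chr14:55540016-55540315, plus strand): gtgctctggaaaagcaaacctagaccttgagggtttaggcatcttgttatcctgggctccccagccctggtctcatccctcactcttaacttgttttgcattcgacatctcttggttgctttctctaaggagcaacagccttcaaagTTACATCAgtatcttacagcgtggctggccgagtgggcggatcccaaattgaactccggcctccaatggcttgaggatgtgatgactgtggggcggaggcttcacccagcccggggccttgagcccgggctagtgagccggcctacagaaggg
Slc1a4 (chr11:20332664-20332963, minus strand): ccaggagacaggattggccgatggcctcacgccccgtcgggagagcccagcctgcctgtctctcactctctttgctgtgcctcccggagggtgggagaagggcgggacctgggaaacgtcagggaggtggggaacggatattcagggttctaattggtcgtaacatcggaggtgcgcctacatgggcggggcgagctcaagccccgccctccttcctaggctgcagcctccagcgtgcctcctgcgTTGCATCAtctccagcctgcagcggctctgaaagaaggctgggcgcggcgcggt
Asns (chr6:7693160-7693459, minus strand): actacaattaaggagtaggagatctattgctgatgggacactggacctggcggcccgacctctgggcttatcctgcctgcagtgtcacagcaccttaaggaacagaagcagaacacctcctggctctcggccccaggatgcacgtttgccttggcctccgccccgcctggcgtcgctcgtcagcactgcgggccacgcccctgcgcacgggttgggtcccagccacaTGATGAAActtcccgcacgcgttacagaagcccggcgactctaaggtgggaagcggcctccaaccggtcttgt
With the annotated start at 0, the first base of the match lies at −66 and −47 in Slc7a11, which alone holds 2 that do not overlap, at −103 in Pycr1 and in Pck2, at −4 in Slc1a4 and at −23 in Asns. In Got1, whose levels did not pass the test in any comparison, it lies at −102. A match is a run of letters and not evidence of binding in these cells.

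Within the null cells, all 3 treated libraries were above all 3 untreated ones for Slc7a3, Aldh1l2, Gpt2, Slc6a9 and others of the 34, but no gene of the 34 passed the test. The test called 0.0380% of all genes higher and 0.0163% lower in Ctr1-null+BCS against Ctr1-null, 10 of 18408 genes in all. At an unadjusted p under 0.05, 13 of the 34 were higher and 3 lower (38.2% and 8.82%), against 8.34% and 6.37% of all genes tested. The treated and untreated libraries did not overlap for 14 genes that were higher and 4 that were lower (41.2% and 11.8% of the 34, against 13.4% and 10.9% of all genes). The median log2 fold change was 0.15, against 0.002 over all genes. DESeq2, run as an alternative, called 8 of the 34 higher (Aldh1l2, Cth, Gpt2, Pck2, Pycr1, Slc1a4, Slc6a9 and Slc7a3) and Slc38a1 lower, where it called 2.13% of all genes higher and 1.73% lower, and limma-voom called none.

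The smallest adjusted p was that of Slc1a4 (0.56 ± 0.10, adjusted p = 0.0834), and its treated and untreated libraries, given above, did not overlap. Aldh1l2 followed at 0.95 ± 0.18 (adjusted p = 0.0879), Slc6a9 at 0.63 ± 0.12 (0.0924) and Gpt2 at 0.89 ± 0.18 (0.0932). The glycine transporter Slc6a9 was at 31.3, 26.1 and 33.7 CPM in Ctr1-null+BCS, 19.0, 19.8 and 20.0 CPM in Ctr1-null and 21.4, 26.8 and 28.2 CPM in WT. It was lowest in untreated null cells, with treated cells in and above the WT range. Slc3a2 was likewise lowest in untreated null cells, at 306, 318 and 276 CPM in Ctr1-null+BCS and 242, 247 and 208 CPM in Ctr1-null (0.37 ± 0.11, adjusted p = 0.184). When WT replicate 1 was left out of the fit, which shares its estimate of the spread over all groups, Aldh1l2, Gpt2, Pck2, Slc1a4 and Slc6a9 were called higher, with adjusted p-values between 0.0334 and 0.0419, while 0.547% of all genes were called higher and 0.425% lower.

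Slc7a3 had the largest log2 fold change of the 34 between treated and untreated null cells, 1.15 ± 0.27 (adjusted p = 0.121), and Pycr1, Pck2, Cth, Asns and Psph had 0.74, 0.70, 0.64, 0.58 and 0.55. Slc7a11, the gene with the largest difference from WT, had 0.59 ± 0.31 (adjusted p = 0.413), and here the groups overlapped because Ctr1-null replicate 1 lay at the level of the treated cells. On the lower side were Shmt1 (−0.46 ± 0.14, adjusted p = 0.207), Slc38a1 (−0.41 ± 0.10, adjusted p = 0.145), Slc38a2 (−0.28 ± 0.10, adjusted p = 0.230) and Mthfd1l (−0.28 ± 0.16, adjusted p = 0.450), all 4 without overlap between the groups.

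Untreated null cells were then set against WT, with BCS in neither group. Again no gene of the 34 passed the test, which called 0.00543% of all genes higher and 0.00543% lower. The loss of Ctr1 and other differences between the cell lines cannot be told apart here, because the labels do not name clones. At an unadjusted p under 0.05, 1 of the 34 was higher and 8 were lower (2.94% and 23.5%), against 9.08% and 8.52% of all genes tested. DESeq2 called Slc7a11 higher and Slc38a1, Slc3a2 and Slc7a5 lower, where it called 2.82% of all genes higher and 2.92% lower, and limma-voom called none of the 34. The log2 fold change was negative for 28 of the 34 genes and positive for 6, with a median of −0.23 against 0.01 over all genes. The groups did not overlap for 1 gene that was higher and 3 that were lower (2.94% and 8.82% of the 34), against 9.49% and 8.62% of all genes. The share that was lower was thus near that of all genes, and the share that was higher lay below it. The higher one was Slc7a11 (1.17 ± 0.32, adjusted p = 0.141). The lower ones were Slc38a1 (−0.41 ± 0.10, adjusted p = 0.120), Slc3a2 (−0.38 ± 0.11, 0.141) and Slc6a9 (−0.38 ± 0.12, 0.183).

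The outcome of this comparison changed without WT replicate 1. The median over the 34 of the log2 level, relative to the WT mean, was 0.01, −0.02 and 0.03 in the Ctr1-null+BCS libraries, −0.03, −0.31 and −0.34 in the Ctr1-null libraries and −0.20, 0.08 and 0.12 in the WT libraries. By this median replicate 1 lay above the other Ctr1-null libraries and below the other WT libraries. Without WT replicate 1, Slc7a11 was called higher and 10 genes lower: Aldh18a1, Asns, Glud1, Phgdh, Psat1, Shmt2, Slc38a1, Slc3a2, Slc6a9 and Slc7a5, while 9.22% of all genes were called higher and 8.05% lower. Slc7a5 then had −0.96 ± 0.17 (adjusted p = 0.00667), Asns −0.79 ± 0.18 (0.0171) and Slc7a11 1.24 ± 0.37 (0.0497).

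**Figure D4:**
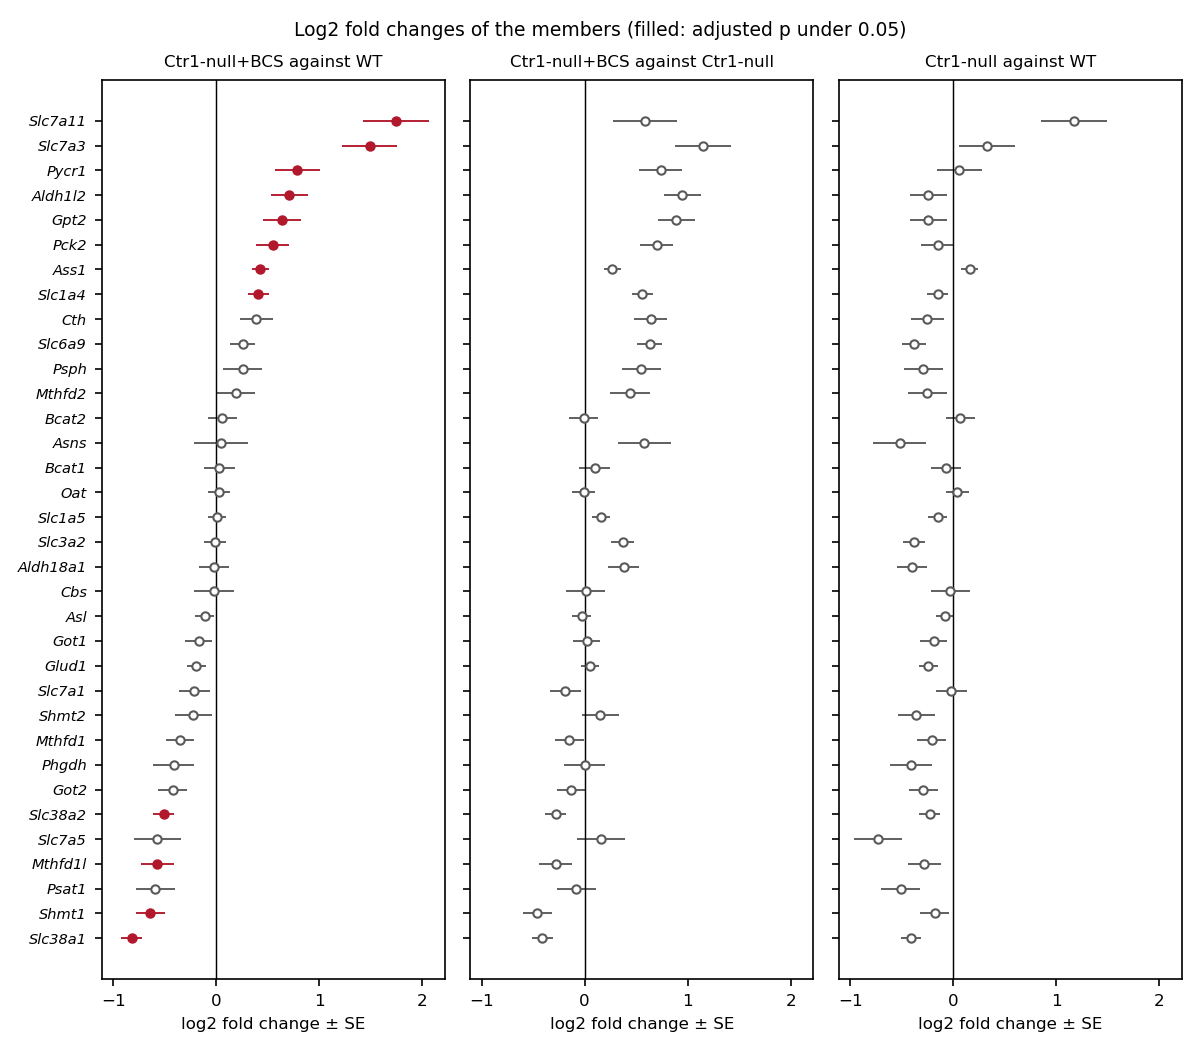
Log2 fold change ± SE (x axis) of the 34 genes (rows, in the order of their change in Ctr1-null+BCS against WT) in the 3 comparisons, which share groups with each other; filled points have an adjusted p under 0.05 in the quasi-likelihood test of edgeR. The first panel holds 8 filled points right of 0 and 4 left of it, the other panels hold none, and in Ctr1-null against WT 28 of the 34 points lie left of 0.

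The comparisons share libraries, so a gene's values in them are not independent. Side by side, Aldh1l2 had log2 fold changes of 0.71, 0.95 and −0.24 in Ctr1-null+BCS against WT, Ctr1-null+BCS against Ctr1-null and Ctr1-null against WT, and Gpt2 had 0.64, 0.89 and −0.24. In that order Slc7a11 had 1.75, 0.59 and 1.17, and Slc38a1 had −0.82, −0.41 and −0.41. Asns had 0.05, 0.58 and −0.52.

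Over the 9 libraries, the genes whose log2 CPM followed that of Aldh1l2 most closely among all tested genes were Gpt2 (Pearson r = 0.987), Trib3 (0.976) and Cth (0.975). For Shmt1 they were Sdad1, Cdc6 and Ncapd3 (0.994, 0.993 and 0.992), and for Slc38a1 they were Cdh2, Rbbp6 and Gmeb1 (0.979, 0.973 and 0.971). These coefficients describe 9 libraries that fall into 3 groups, and no test was made of them.

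Genes of the same pathways outside the 34 were set beside them. In Ctr1-null+BCS against WT, 8.56% of all genes rose and 7.28% fell, and 15.7% and 15.3% did without WT replicate 1. At an unadjusted p under 0.05, 8.34% of all genes were higher and 6.37% lower in Ctr1-null+BCS against Ctr1-null. In Ctr1-null against WT these shares were 9.08% and 8.52%, and there 9.22% were called higher and 8.05% lower without WT replicate 1. Of 42 tested genes of amino acid and one-carbon metabolism, 5 rose and 11 fell in Ctr1-null+BCS against WT, with a median log2 fold change of −0.14; without WT replicate 1, 7 rose and 15 fell. Serine racemase Srr had 20.1 ± 3.12 CPM in treated cells and 10.1 ± 0.256 CPM in WT cells (SD, n = 3 each; 1.00 ± 0.15 SE, adjusted p = 0.00651), and Mthfs, which recycles 5-formyltetrahydrofolate, had 3.74 ± 0.305 CPM in treated cells and 2.24 ± 0.245 CPM in WT cells (0.74 ± 0.21, adjusted p = 0.0411). Arginase Arg1 fell to 0.204 ± 0.0701 CPM in treated cells, against 1.25 ± 0.510 CPM in WT cells (−2.60 ± 0.46, adjusted p = 0.00956). In the treated libraries 1 count is 0.0182 to 0.0199 CPM, so the change of Arg1 rests on few counts. None of the 42 passed edgeR's test in the other comparisons. In Ctr1-null+BCS against Ctr1-null, 3 were higher and 7 lower at an unadjusted p under 0.05, and Mtap had the smallest adjusted p (−0.44 ± 0.13, 0.183). In Ctr1-null against WT, 4 were higher and 7 lower, and Srr had the smallest adjusted p (0.57 ± 0.15, 0.133). DESeq2 called 0 higher and 1 lower in the first of these and 1 higher and 1 lower in the second, limma-voom none in either, and leaving out WT replicate 1 gave 2 higher and 6 lower in Ctr1-null against WT.

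Of 28 other amino acid transporters tested, 3 rose and 3 fell in Ctr1-null+BCS against WT, where 8.56% of all genes rose and 7.28% fell. Their median log2 fold change was −0.02. Without WT replicate 1, 5 rose and 3 fell, against 15.7% and 15.3% of all genes. The glutamine transporter Slc38a3 had 1.77 ± 0.471 CPM in treated cells and 0.328 ± 0.107 CPM in WT cells (SD, n = 3 each; 2.43 ± 0.37 SE, adjusted p = 0.00663), and the aromatic amino acid transporter Slc16a10 had 21.2 ± 2.81 CPM in treated cells and 11.5 ± 4.49 CPM in WT cells (0.87 ± 0.25, adjusted p = 0.0454). The transporters Slc7a6 and Slc38a7 fell by 0.54 ± 0.07 and 0.41 ± 0.07 on the log2 scale (adjusted p = 0.00545 and 0.00781). None of the 28 passed the test in the other comparisons. In Ctr1-null+BCS against Ctr1-null, 2 were higher and 3 lower at an unadjusted p under 0.05, and Slc6a17 had the smallest adjusted p (−0.63 ± 0.17, 0.160). In Ctr1-null against WT, 5 were higher and 3 lower, and Slc38a7 had the smallest adjusted p (−0.44 ± 0.07, 0.0677). DESeq2 called 0 higher and 2 lower in the first of these and 1 higher and 2 lower in the second, limma-voom none in either, and leaving out WT replicate 1 gave 8 higher and 2 lower in Ctr1-null against WT.

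ATF4 itself, its upstream kinases and its stress targets outside amino acid supply made up 20 tested genes. Of these, 7 rose and none fell in Ctr1-null+BCS against WT, and 4 rose and none fell in Ctr1-null+BCS against Ctr1-null, where 12 were higher and 1 was lower at an unadjusted p under 0.05. Over all genes, 8.56% rose and 7.28% fell against WT, and 0.0380% rose and 0.0163% fell against Ctr1-null. Without WT replicate 1 the counts were 8 higher and 1 lower against WT and 6 higher and 0 lower against Ctr1-null. The shares of all genes were then 15.7% and 15.3% against WT and 0.547% and 0.425% against Ctr1-null. The secreted stress factor Gdf15 was at 14.2, 12.9 and 17.5 CPM in Ctr1-null+BCS, 4.26, 5.56 and 6.61 CPM in Ctr1-null and 4.72, 4.92 and 4.55 CPM in WT. It rose by 1.65 ± 0.18 against WT (adjusted p = 0.00327) and by 1.44 ± 0.17 against Ctr1-null (adjusted p = 0.0293) on the log2 scale. The transcription factor Atf5 was at 89.6, 85.6 and 98.7 CPM in Ctr1-null+BCS and 46.3, 33.6 and 37.1 CPM in Ctr1-null (1.23 ± 0.12, adjusted p = 0.0117), and the lipoprotein receptor Vldlr rose against WT (1.49 ± 0.18, adjusted p = 0.00462). Atf4 mRNA, named after its values were seen, averaged 338 ± 19.0 CPM in Ctr1-null+BCS, 219 ± 33.1 CPM in Ctr1-null and 258 ± 30.9 CPM in WT (SD, n = 3 each). It did not pass the test against Ctr1-null (0.63 ± 0.12, adjusted p = 0.0924) or against WT (0.39 ± 0.12, adjusted p = 0.0594). In Ctr1-null against WT none of the 20 passed the test. At an unadjusted p under 0.05, 2 were higher and 3 lower, and Vldlr had the smallest adjusted p (0.77 ± 0.18, 0.104). In that comparison DESeq2 called 1 higher and 3 lower, limma-voom none, and leaving out WT replicate 1 gave 3 higher and 4 lower. For Ctr1-null+BCS, DESeq2 called 10 higher and 0 lower against WT and 9 higher and 0 lower against Ctr1-null. It called 10.7% of all genes higher and 11.5% lower in the first, and 2.13% and 1.73% in the second. The limma-voom counts were 9 higher and 0 lower against WT and 4 higher and 0 lower against Ctr1-null, with its shares of all genes not counted.

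Of the 16 proliferation genes, 7 fell in treated cells against WT and 1 against untreated null cells, where 7.28% and 0.0163% of all genes fell. They summed to 2847 to 3433 CPM in Ctr1-null+BCS, 3496 to 4147 CPM in Ctr1-null and 3601 to 4277 CPM in WT. None rose in either comparison. DESeq2 called 10 of the 16 lower against WT and 4 against untreated null cells, where it called 11.5% and 1.73% of all genes lower. The limma-voom counts were 7 and 1, with its shares of all genes not counted. Against WT, Mcm5 fell by 0.52 ± 0.14 and Plk1 by 0.51 ± 0.07 on the log2 scale (adjusted p = 0.0352 and 0.00560), and Mki67 fell by 0.51 ± 0.07 against untreated null cells (adjusted p = 0.0460). None passed the test in Ctr1-null against WT, where 1 gene, Mcm3, was lower at an unadjusted p under 0.05 (−0.26 ± 0.11, adjusted p = 0.264) and neither DESeq2 nor limma-voom called any. Without WT replicate 1, 13 fell in treated cells against WT, 2 against untreated null cells, and 2 in Ctr1-null against WT. The shares of all genes that then fell were 15.3%, 0.425% and 8.05%. The part of proliferation in the levels of the 34 genes was not tested, and in bulk RNA fewer cells that express a gene and less of its RNA per cell cannot be told apart.

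The labels do not say whether counting used the strand. Of the 34 genes, 10 share exon bases with a gene on the opposite strand, 3 of the 12 called genes among them: Aldh1l2 with D10Wsu102e, Shmt1 with Smcr8 and Pck2 with Gm10876. In Ctr1-null+BCS against WT these neighbours had log2 fold changes of −0.51 ± 0.11, −0.07 ± 0.12 and −0.96 ± 0.28, which differ in sign from those of Aldh1l2 and Pck2. The counts of such pairs are less certain than those of the other genes.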

How the data were processed

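RNA was sequenced from 9 libraries, 3 per group. Per the submitters' processing notes, GRCm38 was the build, and STAR, Salmon, FastQC and DESeq2 were used, with no version or role stated. The deposited table holds estimated counts per gene, which the authors left unnormalised and which are whole numbers as deposited. A second table deposited by the authors holds scaled signal values, used only to recover their factors for an alternative. Gene identifiers were matched without version numbers to GENCODE M21 (52566 of 52661 rows; 2156 carried another version). Counts were scaled by TMM, filtered (filterByExpr, minimum count 10) and tested in edgeR 4.0.16 (R 4.3.3) by a 2-sided quasi-likelihood fit of all 9 libraries, which leaves 6 residual degrees of freedom (common biological coefficient of variation 0.169). CPM use TMM-scaled totals. Alternatives used DESeq2 1.42.0, limma 3.58.1, other scalings, other filters, a replicate block and omission of each library; the fit was tested on simulated data. The members and lists were chosen with earlier results of these data known. Named genes were all members, Slc31a1 and, from each list, up to 2 called genes per direction with the largest change, or that with the smallest p, and the 3 genes most correlated with a member; Atf4 and the antisense neighbours were added afterwards. One gene that this rule names is not reported here. Standard errors come from the fit, and counting intervals are not given, because reads that carry no molecular identifier cannot be counted as separate molecules. How reads shared with pseudogene copies were assigned was not examined. Of 33 RefSeq promoter windows of these genes, the last 40 bases lay in a transcript of the gene for 30. The series record gives BCS in mM where the sample labels give uM.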

Additional observations from a re-analysis of the deposited data

How the results depend on the processing

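Of 19 refits, 10 kept all libraries and 9 left out 1 each. In Ctr1-null against WT, where no gene was called, analysis without a filter called 1 of the 34 higher, and DESeq2 called 1 higher and 3 lower; leaving out 1 library gave 0 to 1 higher and 0 to 10 lower. In Ctr1-null+BCS against Ctr1-null, likewise with none called, no filter gave 5 higher and DESeq2 8 higher and 1 lower; leaving out 1 library gave 0 to 5 higher. In Ctr1-null+BCS against WT, where 8 were higher and 4 lower, the authors' own factors gave 6 higher and 3 lower, library size alone 9 higher and 3 lower, the fit of only the groups compared 5 higher, and requiring at least a 2-fold change gave 2 higher and 0 lower; leaving out 1 library gave 1 to 8 higher and 1 to 10 lower. The fit with the replicate number as a block gave 3 higher and 3 lower, and the block changed no count in the other comparisons. Same-numbered libraries did not vary together (correlations of deviations between −0.319 and 0.275), so the numbers were not taken as pairs. No called gene changed direction in any alternative. Of 61 values of the 34 genes and Slc31a1 that were not called and had an unadjusted p of 0.05 or more, 25 changed sign in at least 1 alternative and 5 were called in at least 1. The cause of these differences was not tested. Shares over all genes were counted only for the main fit, DESeq2 and the fit without WT replicate 1. The other counts therefore have no such share beside them. The depth limits the genes with the fewest counts most: Slc7a3 rested on 89 to 436 counts a library and Cbs on 167 to 301.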
